A study of Mus musculus with 16 samples.

Results

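The genes described here are the MAP kinase phosphatases and the Sprouty feedback genes of 6DT1 cells. They were chosen by name alone: every gene of the count table named Dusp followed by a number, Spry1 to Spry4 or Spred1 to Spred3, together with Etv1, Etv4, Etv5 and Phlda1. The rule found 32 of 25745 genes: 22 Dusp genes, 3 Sprouty genes (Spry1, Spry2 and Spry4), 3 Spred genes, 3 Etv genes and Phlda1. Of these, 31 passed the filter on low counts, as did 14445 genes in all. Dusp13, the exception, had 33 counts over the 16 libraries (12 and 8 in untreated and treated cells with the CLIC4 lentivirus, 4 and 9 with the empty vector).

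6DT1 is a mouse mammary cancer cell line of the FVB/N1 strain background. Its cells carried either a lentivirus that expresses CLIC4, a chloride intracellular channel protein, or a lentivirus with an empty vector, and each kind was left untreated or exposed to 1 µM hydrogen peroxide (H2O2). RNA was taken at 24 h, from 4 libraries in each of the 4 groups (libraries 1 to 4 for untreated and 5 to 8 for treated CLIC4 lentivirus cells, 9 to 12 for untreated and 13 to 16 for treated empty-vector cells). Another label field calls the empty-vector samples a CLIC4 knockout and the lentivirus samples wild type. The labels do not say how the endogenous gene was changed, whether a line is a clone or a pool, or whether the libraries came from separate cultures. P-values then measure only the spread between these libraries. All 4 groups went through a lentiviral vector, and no group without one was analysed here, so what is written below as empty vector against lentivirus compares 2 transduced lines labelled as differing in CLIC4.

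As background, growth factor receptors switch on RAS, RAF, MEK and ERK in sequence, and active ERK raises the transcripts of its own inhibitors. Dual specificity phosphatases remove the phosphates that activate ERK, JNK or p38. Sprouty and Spred proteins act between receptor and RAF, the PEA3 ETS factors (Etv1, Etv4, Etv5) are transcription factors downstream of fibroblast and epidermal growth factor receptors, and Phlda1 is a further transcript raised by ERK. In many tumours the levels of Dusp4, Dusp6, Spry4, Etv4 and Etv5 are read as a sign of how active the ERK pathway is, but activity itself is a matter of protein phosphorylation, which RNA levels do not measure.

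Library totals ran from 47089156 to 61945199 counts. Clic4 lay between 222 and 258 CPM (counts scaled to library size with edgeR's TMM factors) in the 8 CLIC4 lentivirus libraries and between 39.5 and 45.1 CPM in 7 of the 8 empty-vector libraries. The untreated empty-vector library 11 stood apart, with 138 CPM of Clic4, a TMM factor of 0.721 against 0.986 to 1.04 elsewhere, and a correlation of log CPM with its group of at most 0.926, where the lowest value of any other pair within a group was 0.998. Its share of structural RNA was 0.727%, where libraries 9, 10 and 12 had 0.0211% to 0.0246%. Comparisons below that use untreated empty-vector cells are therefore given with all 16 libraries and, for counts of called genes and most single genes, also with the 15 other than library 11. Since the fit shares its estimate of spread over all groups, library 11 also bears on comparisons it does not enter: the common biological coefficient of variation was 23.1% with it and 5.28% without it. Of the epithelial markers, Krt8, Krt18 and Krt19 were expressed, while the defining markers Epcam and Cdh1 reached at most 0.0357 and 0.126 CPM outside library 11 (12.96 and 1.53 CPM in it) and Cldn3 at most 0.0357 CPM. Of 7 list genes found, 4 reached a mean of 1 CPM in both lentivirus groups and in untreated empty-vector cells (library 11 included). In treated empty-vector cells 3 did, so the summed list does not give the direction of every gene. The sum ran from 567 to 621 CPM in untreated lentivirus cells. In untreated empty-vector cells it ran from 940.0 to 1396 CPM (1396 in library 11, at most 979.8 in the others). The immune list ran from 77.6 to 82.9 against 223 to 370 CPM (370 in library 11), with Ptprc, the pan-leukocyte marker, at 0 in the empty-vector cells, and the endothelial list from 79.9 to 85.2 against 3.78 to 7.78 CPM. Mesenchymal markers ran from 2570.1 to 2618 against 2709 to 3765 CPM and basal markers from 3.90 to 5.02 against 0.186 to 1.43 CPM. Library 11 set the values of 2709, 1.43 and, in the endothelial list, 7.78 CPM. In libraries 9, 10 and 12 the mesenchymal sum was 3572 to 3765, the basal 0.186 to 0.355 and the endothelial 3.78 to 4.68 CPM. In untreated lentivirus cells, 1 of the 4 genes found reached a mean of 1 CPM in each of the immune, endothelial and basal lists. In untreated empty-vector cells 2, 2 and 0 did. These sums thus rest on few genes and do not show a cell type. The part of the lists in the vector differences below was not tested, and in bulk RNA fewer cells of a type and less RNA per cell cannot be told apart.

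Promoter sequences are shown for the members whose levels the results turn on and which have an entry in the RefSeq promoter table (GRCm38.p6, the mm10 build): Dusp6, Etv5 (1 of its 2 starts) and Spred3, which were higher with the empty vector, Spry1, which was nearly absent there, and Dusp1 and Dusp5, whose windows hold the most kinds of motif. The windows are the 250 bases before the transcription start, 5′ to 3′; those of Dusp1 and Dusp5 stop where an annotated exon of the gene begins. Capitals mark a match, on either strand, to the cyclic AMP response element CRE (TGACGTCA), the AP-1 site (TGAGTCA or TGACTCA), an ETS core (GGAAGT), the E-box (CACGTG) or the serum response element core known as CArG.
Dusp6, chr10:99262981-99263230, plus strand: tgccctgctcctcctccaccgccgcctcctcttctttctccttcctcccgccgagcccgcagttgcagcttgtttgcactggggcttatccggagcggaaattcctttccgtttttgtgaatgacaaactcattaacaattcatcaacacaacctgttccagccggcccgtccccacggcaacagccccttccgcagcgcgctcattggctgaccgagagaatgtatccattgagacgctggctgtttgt
Etv5, chr16:22438369-22438618, minus strand: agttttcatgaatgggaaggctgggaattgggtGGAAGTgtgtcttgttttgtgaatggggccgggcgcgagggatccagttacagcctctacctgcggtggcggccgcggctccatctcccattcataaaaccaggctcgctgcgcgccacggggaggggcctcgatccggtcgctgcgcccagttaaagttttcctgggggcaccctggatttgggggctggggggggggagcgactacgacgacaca
Spred3, chr7:29168648-29168897, minus strand: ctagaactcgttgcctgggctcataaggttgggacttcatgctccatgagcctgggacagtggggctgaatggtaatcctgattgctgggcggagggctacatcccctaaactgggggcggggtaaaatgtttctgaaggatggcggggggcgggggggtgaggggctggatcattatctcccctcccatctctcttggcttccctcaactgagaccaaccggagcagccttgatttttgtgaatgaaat
Spry1, chr3:37639697-37639946, plus strand: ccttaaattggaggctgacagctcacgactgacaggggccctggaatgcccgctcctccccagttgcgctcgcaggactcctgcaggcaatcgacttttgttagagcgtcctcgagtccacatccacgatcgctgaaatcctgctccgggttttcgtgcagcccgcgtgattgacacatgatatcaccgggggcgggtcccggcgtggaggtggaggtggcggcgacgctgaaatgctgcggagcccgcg
Dusp1, chr17:26508520-26508722, minus strand: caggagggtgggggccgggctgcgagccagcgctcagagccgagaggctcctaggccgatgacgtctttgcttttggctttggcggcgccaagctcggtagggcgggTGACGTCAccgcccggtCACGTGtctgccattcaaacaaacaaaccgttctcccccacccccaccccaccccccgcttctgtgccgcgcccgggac
Dusp5, chr19:53528895-53529108, plus strand: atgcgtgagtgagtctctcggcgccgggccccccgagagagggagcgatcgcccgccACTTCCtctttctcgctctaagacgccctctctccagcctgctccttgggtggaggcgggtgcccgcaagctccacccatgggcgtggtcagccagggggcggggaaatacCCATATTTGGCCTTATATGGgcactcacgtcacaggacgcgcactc
The Dusp6, Spred3 and Spry1 windows hold none of these letters, which says nothing about the factors. The Etv5 window shown has an ETS core, that of Dusp1 a CRE and an E-box, and that of Dusp5 both CArG and ETS core matches. The window of the other Etv5 start holds none of these motifs. Among the 25 members with an entry, a CRE was found in 2 (Dusp1, Dusp8), where 1.55% of all 32851 promoter windows hold it. An ETS core was found in 3 (Dusp5, Etv5, Spred2; 19.7% of all windows), an E-box in 2 (Dusp1, Dusp2; 6.02%), a CArG match in 1 (Dusp5; 1.47%) and an AP-1 site in 1 (Dusp13; 4.46%). Members were counted by gene, with a match in any window of the gene (30 windows in all). The shares are per window, so the 2 measures are unlike. Member windows had a median of 16.5 CpG pairs and 59.4% G and C, against 6 and 52.4% over all windows.

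The first question is how the feedback genes differed between the vectors. A gene was called where the Benjamini-Hochberg adjusted p of edgeR's quasi-likelihood test, over all genes, was under 0.05. In untreated cells 16 members were higher and 7 lower with the empty vector, where 29% of all genes tested were called higher and 24.3% lower. Under H2O2, 11 were higher and 6 lower, beside 22.1% and 20% of all genes. Without library 11 the count was 20 higher and 10 lower in both comparisons, beside 37% and 37.3% of all genes in untreated cells and 36.6% and 37.2% under H2O2. Dusp19 alone was then not called. Dusp26 and Spry1, called lower in both comparisons and both fits, passed the filter on low counts only through the lentivirus libraries. The members' median log2 change was 0.30 in untreated and 0.31 in treated cells, against 0.026 and -0.011 over all genes. With Dusp26, which had a group at 0 counts, set to its bound these medians stay as they are, since it remains below them. By position of the libraries, 14 members lay wholly above and 7 wholly below the lentivirus group in untreated cells (49.6% of all genes did not overlap), and 20 above and 10 below under H2O2 (69.4%). In untreated cells without library 11 the count was again 20 above and 10 below (71.8% of all genes).

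The treated and untreated vector comparisons use different libraries. With 16 libraries, 11 members were called higher in both and 6 lower in both, which is 17 of the 23 called in untreated and of the 17 called in treated cells. Over all genes, 2822 were higher in both, 2357 lower in both and 2521 called in untreated cells only, of 14445. Without library 11, 20 were higher in both and 10 lower in both, with none in opposite directions. Over all genes this fit gave 4859 higher in both, 4721 lower in both and 30 opposite, of 14602. For these 30 members the direction was thus the same in 2 separate sets of libraries of the same lines, as it was for most called genes.

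**Figure D1:**
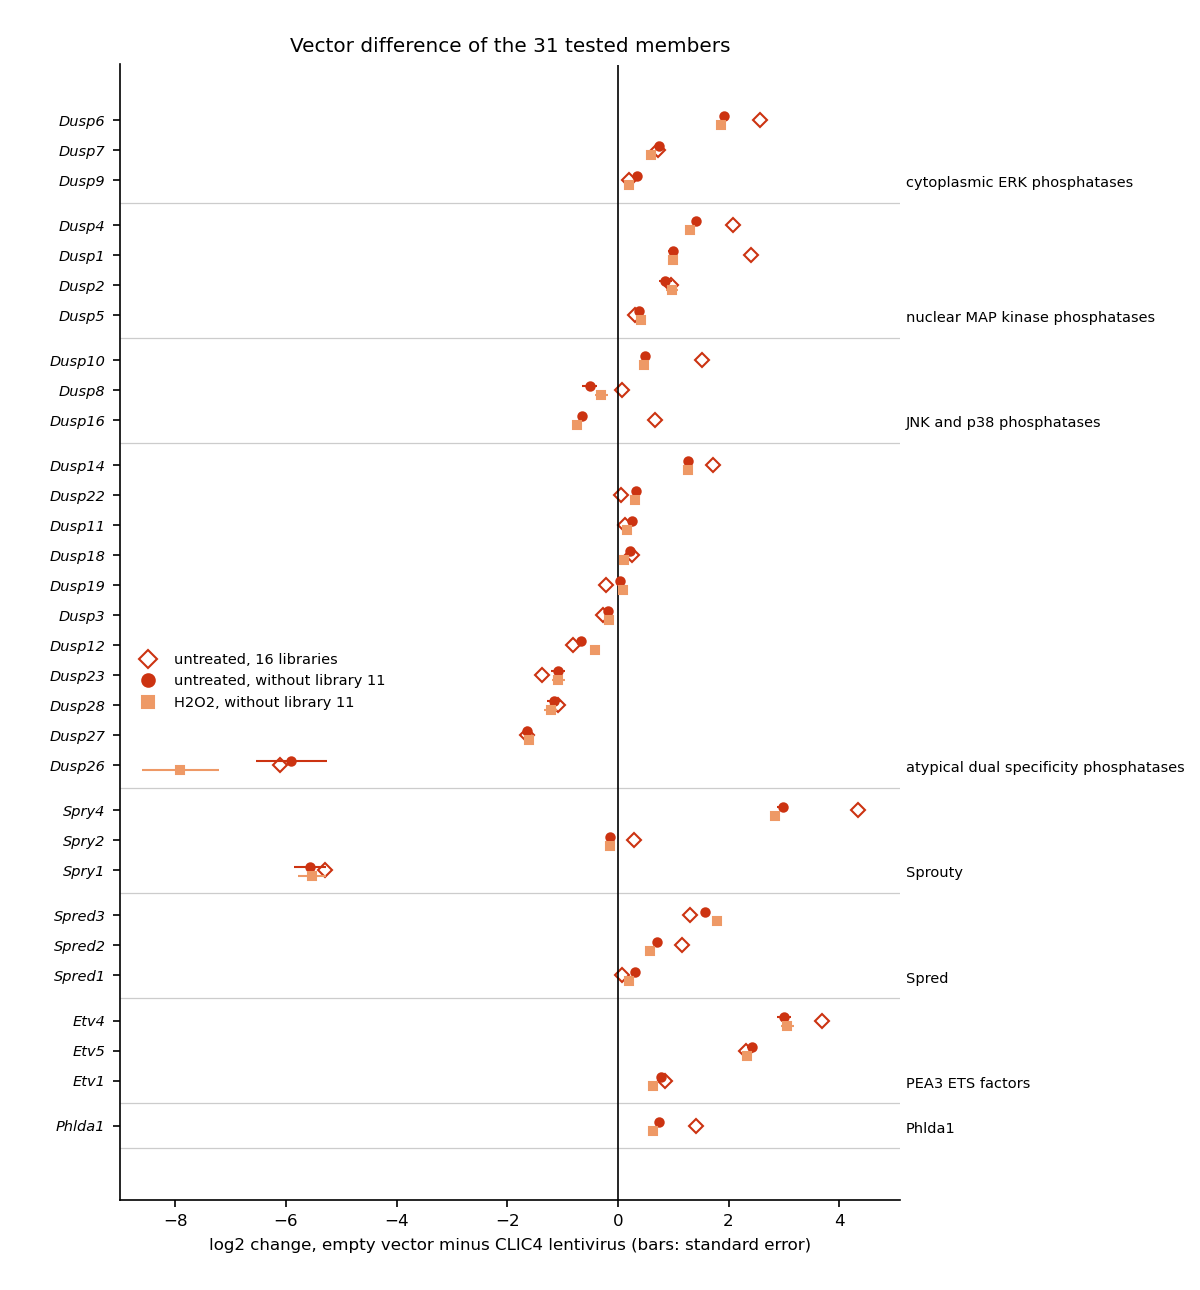
The log2 change of each of the 31 tested members, empty vector minus CLIC4 lentivirus, is on the x axis and the members are grouped by role on the y axis. Filled symbols with bars are values with their standard error without library 11, open diamonds are untreated values with all 16 libraries (no error drawn). Cytoplasmic ERK phosphatases, nuclear MAP kinase phosphatases, Spred and PEA3 genes lie right of 0 and Spry1 and Dusp26 far to the left.

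Dusp6, the cytoplasmic phosphatase that acts on ERK, was among the members most raised with the empty vector. Its gene, like all those placed below, is protein-coding in GENCODE vM21 for mm10 (chr10:99263231-99267489, plus strand). It stood at 25.7, 24.3, 22.4 and 21.8 CPM in untreated and 22.9, 20.9, 25.1 and 25.3 CPM in treated lentivirus libraries. With the empty vector it stood at 92.5, 91.4, 289 and 84.2 CPM (libraries 9 to 12 in order) and 81.9, 88.5, 85.8 and 88.1 CPM. All 8 empty-vector libraries lay above all 8 lentivirus libraries, and library 11 lay far above the other 7. The fold was 5.92 in untreated cells (log2 2.56 ± 0.33 SE, edgeR adjusted p = 1.63e-05) and 3.80 without library 11. Under H2O2 it was 3.66 (log2 1.87 ± 0.32, edgeR adjusted p = 2.43e-04). Dusp7, a further cytoplasmic ERK phosphatase, was higher by log2 0.72 ± 0.076 and 0.60 ± 0.076 in untreated and treated cells, called in both, and the untreated value without library 11 was 0.73. Dusp9, an X-linked relative of both, had log2 0.19 and 0.21, not called with 16 libraries (edgeR adjusted p = 0.200 and 0.201) and called higher in both without library 11 (log2 0.34 and 0.21).

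All 4 nuclear phosphatases, which are induced by growth factors and act on ERK and in part on JNK and p38, were called higher in untreated cells, and 3 of the 4 under H2O2. Over all genes, 29% were called higher in untreated cells and 22.1% under H2O2. Dusp4 (chr8:34807297-34819894, plus strand) stood at 27.8, 29.4, 27.4 and 28.3 CPM in untreated and 28.3, 28.8, 28.3 and 30.7 CPM in treated lentivirus cells, against 74.3, 75.1, 251 and 75.2 CPM and 72.1, 75.9, 75.5 and 64.7 CPM with the empty vector. Again no library overlapped, and library 11 was highest. Its fold was 4.21 in untreated cells (edgeR adjusted p = 1.13e-04), 2.66 without library 11, and 2.48 under H2O2 (edgeR adjusted p = 0.00399).

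Dusp1, an immediate early phosphatase (chr17:26505590-26562128, minus strand), was the member most raised in library 11. Its lentivirus values were 4.75, 4.78, 6.05 and 5.04 CPM in untreated and 5.35, 4.80, 6.19 and 5.95 CPM in treated cells. Empty-vector values were 10.6, 9.48, 78.4 and 10.9 CPM and 11.3, 10.7, 11.8 and 10.6 CPM. Libraries 9, 10 and 12 and all treated ones lay in a narrow band above the lentivirus cells, whereas library 11 lay several times higher. The fold in untreated cells was accordingly 5.29 with all libraries (edgeR adjusted p = 0.00275) and 2.00 without library 11 (edgeR adjusted p = 7.10e-09). Under H2O2 the fold was 1.99 and was not called with the spread estimated over 16 libraries (edgeR adjusted p = 0.166); without library 11 it was called (edgeR adjusted p = 2.13e-09). The annotated exons of Dusp1 share 11 bases with Ergic1 on the opposite strand.

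Dusp5, an inducible nuclear ERK phosphatase (chr19:53529109-53542431, plus strand), differed little. It ran 20.7, 18.04, 19.8 and 18.95 and 19.3, 19.1, 19.4 and 19.9 CPM in lentivirus cells, and 26.4, 25.4, 19.8 and 24.03 and 27.1, 25.9, 26.6 and 24.9 CPM in empty-vector cells. In library 11 it lay within the lentivirus range, unlike Dusp1, Dusp4 and Dusp6. The log2 change was 0.30 ± 0.084 in untreated cells (edgeR adjusted p = 0.00788), 0.38 without library 11 (edgeR adjusted p = 8.42e-07), and 0.43 ± 0.084 in treated cells (edgeR adjusted p = 7.99e-04). Dusp2, best known from activated immune cells, was at 3.82 ± 0.571 CPM (SD, n = 4) in untreated lentivirus and 7.27 ± 0.679 CPM in treated empty-vector cells, and was higher by log2 0.97 and 0.98, called in both (untreated value without library 11, 0.86).

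**Figure D2:**
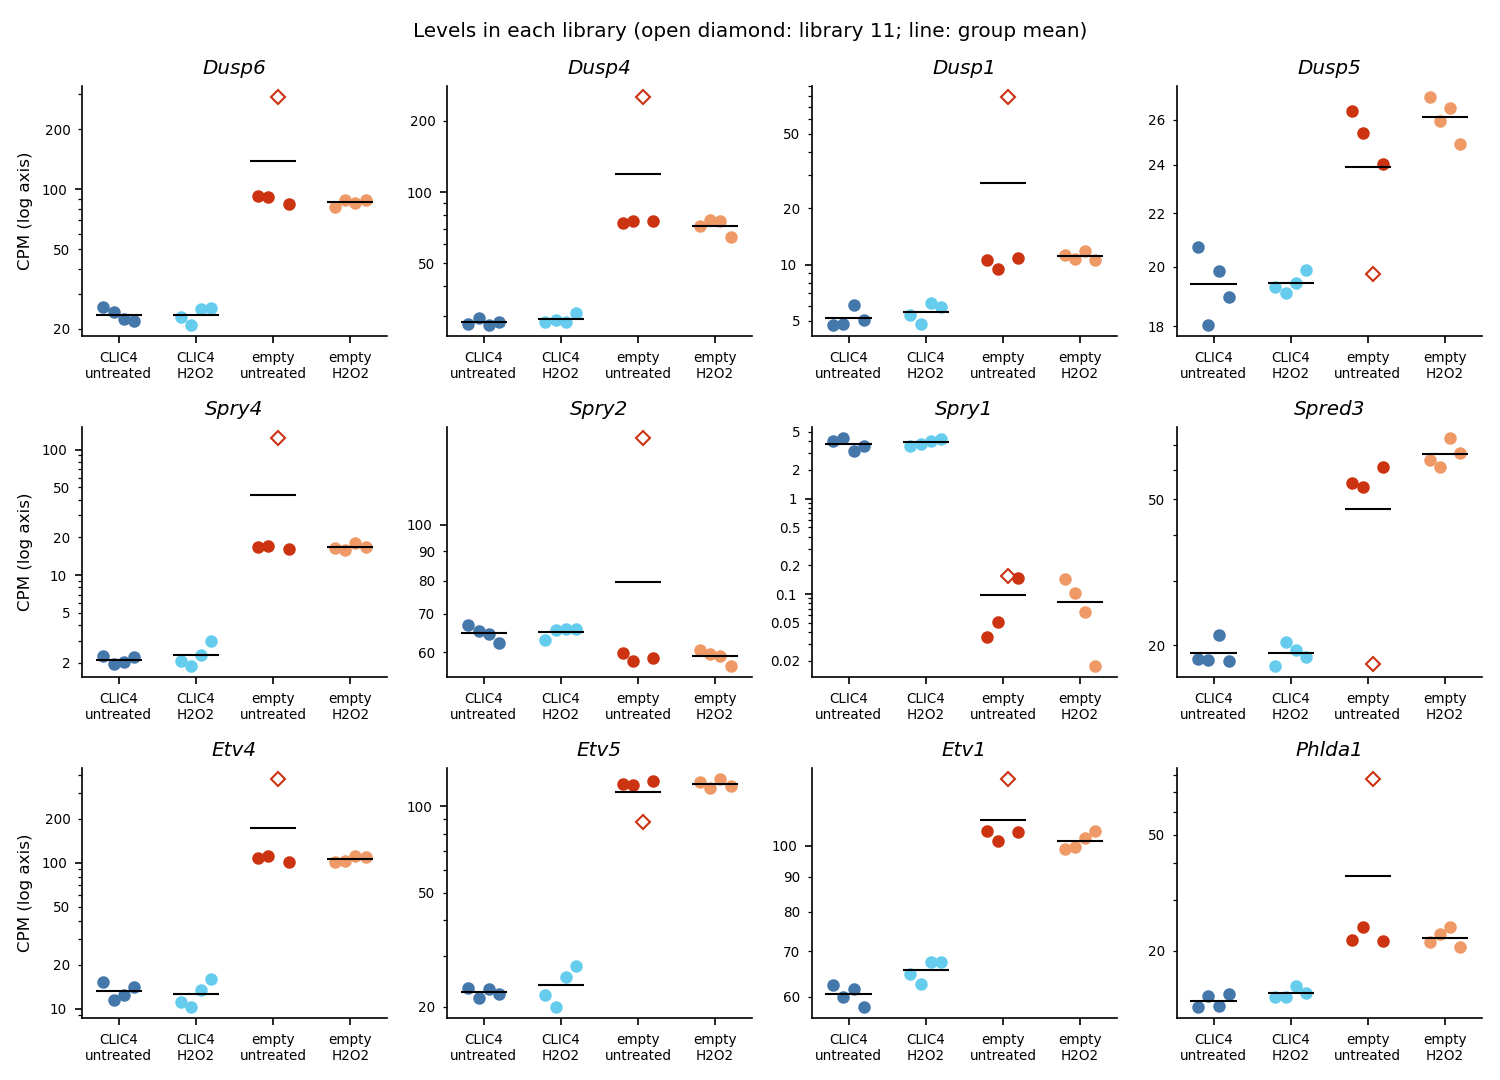
CPM on a log axis is shown for 12 members in each library of the 4 groups, with a line at the group mean and library 11 as an open diamond. Library 11 exceeds its group in Dusp1, Dusp4, Dusp6, Spry2, Spry4, Etv1, Etv4 and Phlda1 and lies below it in Dusp5, Etv5 and Spred3.

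The phosphatases that prefer JNK and p38 did not share a direction, and 2 of the 3 changed sign with library 11. Dusp16 was at 44.2 ± 0.762 CPM in untreated lentivirus cells and 27.7, 26.6, 198 and 30.5 CPM in libraries 9 to 12. Its log2 change was 0.67 ± 0.51 (edgeR adjusted p = 0.276) and -0.64 ± 0.048 without library 11 (edgeR adjusted p = 3.23e-10). Under H2O2 the value was -0.75, called lower only in the fit without library 11 (edgeR adjusted p = 0.271 and 7.38e-12). Dusp8 had log2 0.079 in untreated cells, -0.51 without library 11 (called), and -0.30 under H2O2. Dusp10 was higher by log2 1.52 with all libraries and by 0.50 without library 11, called in each; under H2O2 it was 0.46, called without library 11 only (edgeR adjusted p = 0.430 with 16 libraries).

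Of the 11 atypical dual specificity phosphatases tested, not all of which act on MAP kinases, 2 were called higher and 6 lower in untreated cells, and 1 higher and 5 lower under H2O2. With library 11 left out, 4 were higher and 6 lower in both. Over all genes, 29% were called higher and 24.3% lower in untreated cells, and 22.1% and 20% under H2O2. Without library 11 these shares were 37% and 37.3%, and 36.6% and 37.2%, so the 4 called higher lie near the background. Dusp14, a small phosphatase known from immune signalling (chr11:84048041-84069261, minus strand), was at 6.69, 6.40, 6.21 and 6.27 and 6.21, 5.43, 6.52 and 7.07 CPM in lentivirus and 16.7, 14.96, 38.1 and 14.4 and 15.9, 14.7, 16.01 and 14.5 CPM in empty-vector cells. Its groups did not overlap, with log2 1.72 in untreated cells, 1.27 without library 11 and 1.27 under H2O2 (edgeR adjusted p = 6.06e-05, 1.05e-11 and 7.74e-04).

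Dusp26 (chr8:31089471-31097047, plus strand) was the member closest to absence in the empty-vector cells. The lentivirus libraries held 0.411, 0.533, 0.495 and 0.495 CPM and 0.489, 0.793, 0.403 and 0.446 CPM, or 105 and 121 counts over 4 libraries each. A single count was found in the 4 untreated empty-vector libraries, in library 12, and 0 in the 4 treated ones. The untreated ratio was 101, with an exact 95% counting interval of 17.7 to 4014. Against a floor of 3 counts over the group, Dusp26 was at least 40.7-fold lower with the empty vector under H2O2 (edgeR adjusted p = 1.43e-06). The interval and the floor cover counting error only. Dusp26 passed the filter on low counts only through the lentivirus libraries, where it was high. Its adjusted p is thus no separate support for the difference.

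Dusp27, a catalytically inactive member known from muscle, was at 41.2, 38.3, 38.5 and 40.1 and 38.02, 42.3, 42.7 and 41.1 CPM in lentivirus and at 12.6, 13.98, 12.4 and 11.3 and 13.1, 13.8, 13.4 and 13.3 CPM in empty-vector cells. Library 11 sat with its group here, and the log2 change of -1.65 ± 0.072 in untreated cells was -1.64 without it and -1.61 under H2O2, called in each (edgeR adjusted p = 2.67e-10, 3.63e-15 and 3.34e-10). Dusp28 was at 4.36, 5.33, 4.39 and 5.23 and 4.61, 5.07, 4.47 and 4.77 CPM against 2.22, 1.93, 2.62 and 2.36 and 2.54, 1.98, 1.92 and 1.71 CPM, lower by log2 change of -1.08 and -1.21 (called in both), with an untreated value of -1.15 without library 11. Dusp23 was at 2.96, 2.91, 3.55 and 3.23 and 3.20, 3.05, 3.33 and 3.42 CPM against 1.34, 1.66, 0.389 and 1.47 and 1.76, 1.64, 1.58 and 1.18 CPM. Its lowest library was 11, and the log2 change was -1.37 in untreated cells, -1.08 without that library and -1.08 under H2O2, called in each. Dusp12 was called lower, with log2 changes of -0.81 and -0.41 (-0.66 in untreated cells without library 11); the treated call (edgeR adjusted p = 0.0284) was lost when any of libraries 5, 6, 8, 13, 14 or 15 was left out (adjusted p at most 0.0754). Dusp3, which acts on ERK and JNK, was lower by a log2 change of -0.27 in untreated cells (-0.18 without library 11, called) and had -0.16 under H2O2, not called with 16 libraries (edgeR adjusted p = 0.113). Dusp18, Dusp11 and Dusp22 were at most 0.32 higher (log2) in both comparisons and fits. Dusp19 was called in neither; 131 of its exonic bases are shared with Nup35 on the same strand.

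The Sprouty genes differed in direction. Spry4 stood at 2.27, 1.98, 2.05 and 2.22 CPM in untreated and 2.09, 1.89, 2.31 and 3.01 CPM in treated lentivirus cells. With the empty vector it stood at 16.8, 17.1, 123 and 16.3 CPM and 16.5, 15.8, 17.98 and 16.8 CPM. The groups did not overlap, and the log2 change was 4.34 ± 0.62 in untreated cells (edgeR adjusted p = 4.55e-05), 2.98 ± 0.10 without library 11, and 2.85 ± 0.58 under H2O2 (edgeR adjusted p = 0.00107). Spry1 (chr3:37639947-37644598, plus strand) went the other way. The lentivirus libraries held 3.96, 4.26, 3.15 and 3.53 and 3.58, 3.75, 4.03 and 4.22 CPM, and the empty-vector libraries 0.0353, 0.0507, 0.155 and 0.149 and 0.145, 0.104, 0.0657 and 0.0177 CPM. In counts these were 812 and 893 against 19 and 19, so the empty-vector cells kept a trace of the transcript. The log2 change was -5.29 ± 0.40 in untreated cells (-5.56 without library 11) and -5.52 ± 0.40 in treated cells (edgeR adjusted p = 9.26e-08 and 5.95e-08). Like Dusp26, Spry1 passed the filter on low counts only through the lentivirus libraries, so these p-values are no separate support.

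Spry2 (chr14:105891947-105896819, minus strand), the most abundant Sprouty transcript, stood at 67.1, 65.4, 64.6 and 62.3 and 63.1, 65.7, 65.9 and 65.8 CPM in lentivirus cells, and at 59.8, 57.9, 141 and 58.7 and 60.6, 59.5, 59.1 and 56.8 CPM in empty-vector cells. All empty-vector libraries other than 11 lay below all lentivirus libraries, and library 11 lay above every one. The log2 change was 0.29 with all libraries (edgeR adjusted p = 0.282) and -0.14 ± 0.033 without library 11 (edgeR adjusted p = 8.84e-04). Under H2O2 the value was -0.14 in both fits, called lower only without library 11 (edgeR adjusted p = 0.658 and 3.57e-04).

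All 3 Spred genes, whose proteins bring the RAS inactivator neurofibromin to the membrane, were higher with the empty vector without library 11. In that fit 37% of all genes were called higher in untreated cells and 36.6% under H2O2. Spred3 (chr7:29158829-29170411, minus strand) was at 18.4, 18.3, 21.3 and 18.1 and 17.6, 20.5, 19.4 and 18.6 CPM in lentivirus and 55.2, 54.1, 17.8 and 61.1 and 63.9, 61.1, 73.1 and 66.5 CPM in empty-vector cells. Library 11 was lowest of its group and fell among the lentivirus libraries. The log2 change was 1.31 ± 0.26 in untreated cells, 1.58 without library 11 and 1.80 ± 0.26 under H2O2, called in each (edgeR adjusted p = 8.20e-04, 8.16e-13 and 6.74e-05). Spred3 shares 202 exonic bases with Ggn, which lies on the opposite strand and had 1969 counts in all against 34080 for Spred3, and strandedness is not given in the sources used here. Spred2 was higher by log2 1.16 in untreated cells, 0.71 without library 11, and had 0.58 under H2O2 (edgeR adjusted p = 0.0596, and 2.69e-12 without library 11). Spred1 had 0.069 and 0.21 with 16 libraries, not called, and was higher without library 11 by 0.30 and 0.21.

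The PEA3 factors were called higher in both comparisons and both fits. Over all genes, 29% were called higher in untreated cells and 22.1% under H2O2, or 37% and 36.6% without library 11. Etv4 (chr11:101769742-101785371, minus strand) stood at 15.2, 11.5, 12.3 and 14.2 CPM in untreated and 11.1, 10.3, 13.5 and 15.9 CPM in treated lentivirus cells, and at 107, 111, 372 and 100.5 and 101, 102, 111 and 110.2 CPM in empty-vector cells. The empty-vector libraries lay wholly above. The fold was 12.98 in untreated cells, 8.01 without library 11, and 8.36 under H2O2 (edgeR adjusted p = 2.02e-06, 5.12e-11 and 1.04e-05). Etv5 (chr16:22381309-22439719, minus strand) stood at 23.2, 21.4, 23.1 and 22.2 and 21.9, 19.96, 25.4 and 27.7 CPM against 119.6, 118, 88.2 and 122 and 122, 116, 124 and 118 CPM. Unlike Etv4, it was lower in library 11 than in the rest of its group, and its fold of 4.99 became 5.35 without that library, beside 5.05 under H2O2 (edgeR adjusted p = 1.07e-09, 1.00e-13 and 1.01e-09). Etv1 (chr12:38779380-38870484, plus strand) ran 62.4, 59.97, 61.6 and 57.98 and 64.7, 62.7, 67.5 and 67.5 CPM against 105, 102, 125 and 105 and 98.8, 99.6, 103 and 105 CPM, with log2 changes of 0.85 ± 0.065 and 0.63 ± 0.065 (edgeR adjusted p = 8.59e-08 and 1.97e-06). Without library 11 the untreated value was 0.78.

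Phlda1 (chr10:111506286-111508645, plus strand) stood at 12.9, 14.1, 12.9 and 14.3 and 13.9, 13.96, 15.2 and 14.3 CPM in lentivirus and 21.8, 24.1, 77.3 and 21.7 and 21.4, 22.8, 24.1 and 20.6 CPM in empty-vector cells. No library overlapped, and library 11 again stood above. It was higher by log2 1.42 in untreated cells (edgeR adjusted p = 0.00244) and 0.74 without library 11 (edgeR adjusted p = 1.43e-09). Under H2O2 the value was 0.63, not called with 16 libraries (edgeR adjusted p = 0.136) and called without library 11 (edgeR adjusted p = 4.13e-09).

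Levels per transcript length, in the deposited FPKM (fragments scaled to transcript length and depth), show which member carries each family. The Sprouty sum was the same within its spread in untreated cells of both kinds, 36.9 ± 1.6 FPKM (SD, n = 4) with the lentivirus and 36.2 ± 0.59 FPKM (n = 3, without library 11) with the empty vector. Its make-up differed: Spry2 held 94.2% ± 0.49 and 89.4% ± 0.28, Spry4 1.28% ± 0.089 and 10.5% ± 0.33, and Spry1 4.53% ± 0.50 and 0.101% ± 0.080. Thus Spry2 was the bulk of the family in both, with Spry1 as the minor partner in one and Spry4 in the other. With library 11 the empty-vector sum was 45.6 ± 19 FPKM.

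The untreated empty-vector values of the next 3 families also leave out library 11 (n = 3) unless stated. The PEA3 sum was 25.2 ± 2.0 and 116 ± 1.9 FPKM, and its leading member changed. Etv1 held 45.1% ± 2.9 of it with the lentivirus and 19.3% ± 0.61 with the empty vector, while Etv4 went from 30.98% ± 3.4 to 52.2% ± 1.6 and Etv5 from 23.97% ± 1.2 to 28.5% ± 0.97. For the 7 nuclear and cytoplasmic phosphatases that act on ERK, some also on JNK and p38 (Dusp1, Dusp2, Dusp4, Dusp5, Dusp6, Dusp7 and Dusp9), the sum was 55.3 ± 1.5 and 123 ± 5.1 FPKM. Dusp9 held the highest share with the lentivirus, 24.8% ± 0.77, and Dusp6 with the empty vector, 35.3% ± 1.9. The Spred sum was 52.2 ± 1.9 and 81.9 ± 2.1 FPKM, Spred1 holding 61.7% ± 1.0 and 49.9% ± 0.28 and Spred3 11.1% ± 1.2 and 21.1% ± 0.96. With library 11 the untreated empty-vector sums were 132.7 ± 33.6 FPKM for PEA3, 149.6 ± 53.7 FPKM for the 7 phosphatases and 76.25 ± 11.5 FPKM for Spred. Treated cells kept each pattern, with sums of 26.1 ± 2.4 and 118 ± 4.8 FPKM for PEA3 and 37.7 ± 0.76 and 36.4 ± 0.93 FPKM for Sprouty. These sums and shares are descriptions, without a test of their own.

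**Figure D3:**
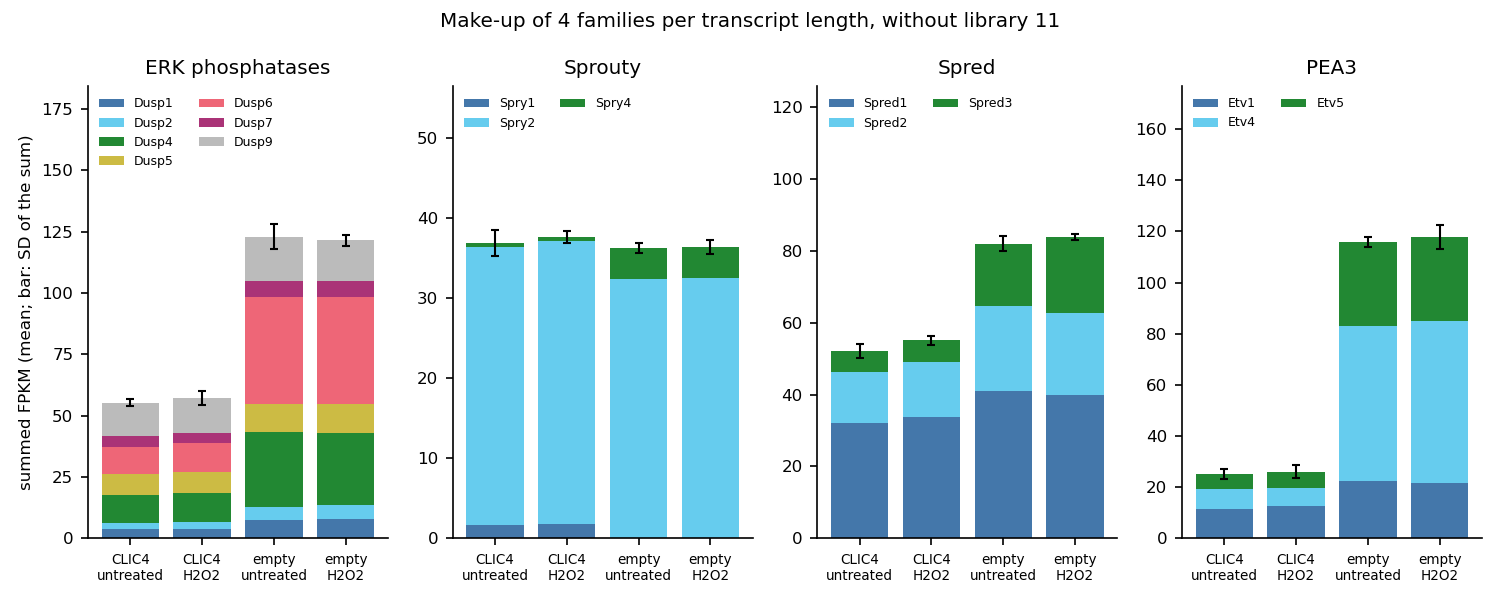
Stacked bars give the mean FPKM of each member of 4 families in the 4 groups, without library 11, with the SD of the family sum as a bar. The Sprouty total is level across groups while its Spry1 and Spry4 parts differ between vectors, and the PEA3 total is 25.2 and 116 FPKM in untreated lentivirus and empty-vector cells.

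The second question is how the members responded to H2O2. No member was called in either kind of cell, in either fit, nor was the difference of the responses (0% of all genes called in each of the 3 comparisons with 16 libraries; 0.24% in empty-vector cells, 0% in lentivirus cells and 0.192% for the difference without library 11). DESeq2 and limma voom with library weights called none either, although DESeq2 gave no adjusted p for 4 members in each response and 21 in the difference. At an unadjusted p under 0.05 edgeR gave 8 members in empty-vector cells, 0 in lentivirus cells and 1 for the difference with 16 libraries, and 3, 3 and 5 without library 11. Over all genes tested the shares were 14.7%, 1.77% and 5.95% with 16 libraries and 13.7%, 14.6% and 16.4% without library 11, so the members' counts without it lie near or below these shares. Apart from Dusp26, at 0 or 1 counts in empty-vector cells, the members' log2 changes without library 11 ran from -0.10 (Dusp9) to 0.22 (Spred3) in empty-vector cells and from -0.23 (Dusp12) to 0.14 (Spry4) in lentivirus cells. The 95% intervals show which sizes of response these libraries allow: -0.18 to 0.069 for Dusp6, -0.078 to 0.29 for Dusp1, -0.17 to 0.17 for Spry4 and -0.24 to 0.23 for Etv4 in empty-vector cells. In lentivirus cells they were -0.13 to 0.13, -0.078 to 0.30, -0.10 to 0.38 and -0.33 to 0.22 in the same order. With library 11 kept, the empty-vector value of Dusp1 was -1.30 (interval -2.46 to -0.13) and that of Spry4 -1.37 (-2.52 to -0.21), with that library's high values in the untreated group.

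In 3 cases the H2O2 and untreated libraries of a member did not overlap, where 12.8% of all genes did not in empty-vector cells without library 11 and 11.1% in lentivirus cells. Spred3 lay above in treated empty-vector cells (55.2, 54.1 and 61.1 CPM untreated without library 11, 63.9, 61.1, 73.1 and 66.5 CPM treated; log2 0.22 ± 0.066, edgeR adjusted p = 0.135), though the highest untreated and the lowest treated value both round to 61.1 CPM. Etv1 lay above in treated lentivirus cells (log2 0.12, edgeR adjusted p = 0.170), and Dusp19 lay below there (log2 -0.11, edgeR adjusted p = 0.405). None of the 3 passed the test.

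In CPM, library 11 differed from its group in the members more often upward than all genes did. Of the 31 tested, 12 (38.7%) were at least 2-fold above the mean of libraries 9, 10 and 12, against 18.1% of all genes, and 6 (19.4%) at least 2-fold below, against 26.1%. The greatest ratios were 7.60 for Dusp1, 7.36 for Spry4, 6.99 for Dusp16 and 5.17 for Dusp10, followed by Etv4 (3.50), Phlda1 (3.43), Dusp4 (3.36), Dusp6 (3.24), Dusp8 (3.03), Dusp14 (2.48), Spred2 (2.47) and Spry2 (2.41). Those below were Spred1, Dusp22, Dusp19, Spred3 and Dusp23, at ratios of 0.402, 0.344, 0.337, 0.313 and 0.261, and Dusp26, with no count. These ratios rest on CPM with a TMM factor of 0.721 for library 11. In the deposited FPKM, Spry2, Spred2 and Dusp14 were less than 2-fold above libraries 9, 10 and 12. Spry2 was at 54.2 against 31.8 to 33 FPKM, Spred2 at 40.7 against 23.7 to 23.95 and Dusp14 at 24.99 against 13.8 to 15.7. The other raised members listed stayed at least 2-fold above, while Dusp9 and Dusp12 fell more than 2-fold below. The share of all genes was not read in FPKM. The JNK and p38 phosphatases Dusp8, Dusp10 and Dusp16 were thus all high in this library, although Dusp8 and Dusp16 were below the lentivirus level in its companions. Within-group scatter shows the same: over members of at least 5 CPM the median coefficient of variation was 3.71% and 3.96% in the untreated and treated lentivirus groups, 5.07% in treated empty-vector cells, and 40.4% in untreated empty-vector cells, or 4.18% without library 11.

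**Figure D4:**
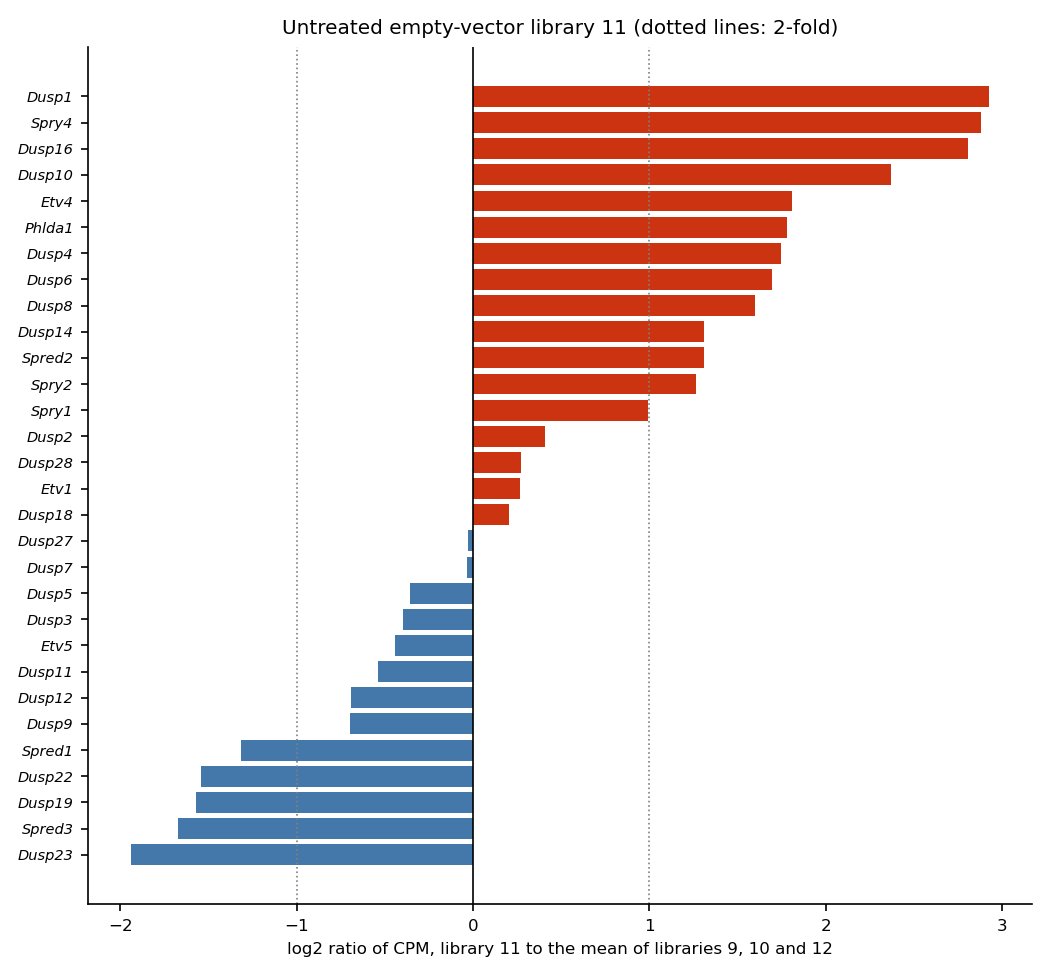
Bars give the log2 ratio of CPM in library 11 to the mean of the other 3 untreated empty-vector libraries for each member with counts in it, with dotted lines at 2-fold. Dusp1, Spry4 and Dusp16 lie near 3 and Dusp23 near -2.

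The genes around the feedback layer were read from lists drawn up for the purpose. Of 20 genes of the ERK cascade (RAS to ERK and its kinases), 6 were higher and 5 lower in untreated cells and 4 higher and 3 lower under H2O2, none of them by 2-fold. Without library 11 the counts were 8 and 9, and 5 and 8. With 16 libraries 29% of all genes were called higher and 24.3% lower in untreated cells and 22.1% and 20% under H2O2, so the cascade's counts lie near the background. The median was 0.066 and -0.057, near that of all genes. Rps6ka1 and Rps6ka3, kinases below ERK, differed in direction under H2O2 (log2 0.63 and -0.47), and Braf was higher by 0.44. Of 14 tested genes of the JNK and p38 cascade, 3 were higher and 3 lower in untreated cells and 2 and 2 under H2O2. Without library 11 the counts were 6 and 4 in each. Over all genes the shares without library 11 were 37% higher and 37.3% lower in untreated cells and 36.6% and 37.2% under H2O2. Mapk11, a p38 kinase, had the smallest adjusted p under H2O2 and was higher by log2 1.14 in untreated cells, 1.27 without library 11, and 1.52 under H2O2. Mapk9, a JNK, was higher by 0.67, 0.60 and 0.49 in the same order. Map2k3, a kinase that activates p38 and is named here after its values were seen, had the list's highest untreated value with 16 libraries (1.19), and 0.48 without library 11 (both called).

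Among 10 tested growth factor receptors 6 were higher and 2 lower in untreated cells, and 3 and 2 under H2O2. Without library 11 the counts were 8 and 2, and 4 and 2. For this list and those below, 29% of all genes were called higher and 24.3% lower in untreated cells. Under H2O2 these shares were 22.1% and 20%. Without library 11 they were 37% and 37.3%, and 36.6% and 37.2%. The 4 receptors called higher under H2O2 without library 11 lie near that share. The highest untreated value was that of Fgfr3, a fibroblast growth factor receptor, at log2 5.28 with 16 libraries and 3.17 without library 11, called in each. It rests on few counts, 5 in the untreated lentivirus group and 38 in libraries 9, 10 and 12, and the treated value of 1.62 was not called (edgeR adjusted p = 0.308). With so few counts the untreated lentivirus libraries could not meet the filter on low counts. The untreated calls of Fgfr3 are thus no separate support for the difference. Pdgfra, the platelet-derived growth factor receptor alpha, was higher by log2 1.89 in untreated cells, 1.90 without library 11, and 1.66 under H2O2. Axl was higher by 0.47, 0.57 and 0.47 in the same order, whereas Erbb3 had -1.17, -1.16 and -1.17 and Erbb2 -0.95, -0.82 and -0.95, called lower in each. Egfr was 2.19 in untreated cells with library 11 and 0.36 without it, and 0.12 under H2O2 (edgeR adjusted p = 0.907). Of 12 other ERK-responsive transcripts, 8 were higher and none lower in untreated cells, and 4 and none under H2O2. Without library 11, 10 were higher and 1 (Epha4) lower in both. Their median was 1.92 in untreated cells, 1.08 without library 11, and 0.99 under H2O2. In that order, Fosl1, an AP-1 subunit, was higher by 3.19, 3.31 and 3.42, Egr2 by 3.27, 2.80 and 2.81, Epha2 by 2.98, 1.82 and 1.74 and Plaur by 1.85, 1.26 and 1.24. Of 6 further feedback regulators tested, 5 were higher and none lower in untreated cells and 2 and none under H2O2; without library 11 the counts were 5 and none, and 4 and 1. Lrig1 had 0.48, 0.48 and 0.40 and Rasa2 0.57, 0.79 and 0.76, called higher in each. Of a 10-gene list used to score MAP kinase activity in human tumours, 7 of which are members, 7 were higher and none lower in untreated cells and 6 and none under H2O2; without library 11 the counts were 8 and 2 in both, Spry2 and Epha4 being lower. Sharing most of its genes with the members, the score list is no independent evidence beside them.

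**Figure D5:**
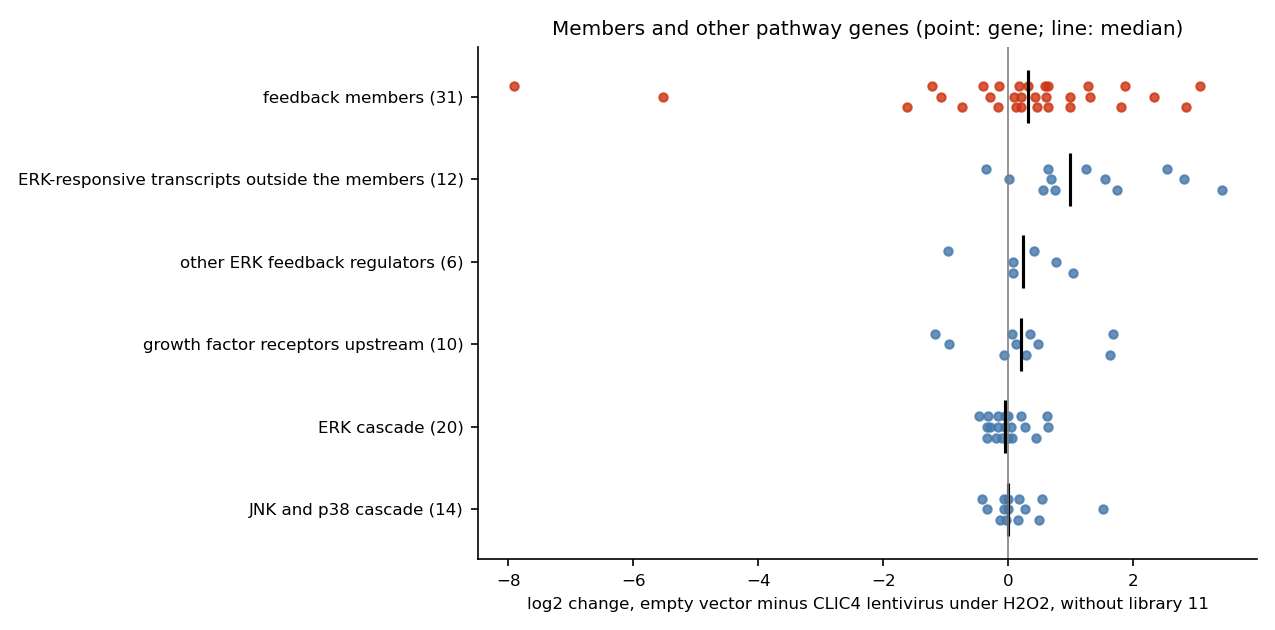
Points are genes and lines medians of the log2 change under H2O2, without library 11, for the members and 5 other lists. ERK cascade genes lie close to 0, and the ERK-responsive transcripts have a median near 1.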

How the data were processed

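RNA was measured in 16 libraries of 6DT1 cells, 4 in each group. The submitters' processing notes name cutadapt, STAR, RSEM and the build mm10. Their versions and order, the annotation and the strandedness were not given in the sources. The deposited counts are whole numbers for 25745 genes, which the authors may have rounded from RSEM's estimates. The authors' FPKM values, for 25372 genes, are scaled to gene length and depth.

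Groups came from the sample titles. Counts of 2 libraries of a group never agreed within sampling noise (lowest chi-square per degree of freedom 5.05). The main fit was edgeR 4.0.16 (R 4.3.3), quasi-likelihood and robust, with TMM scaling and filterByExpr, over all 16 libraries with a coefficient per group, and again without library 11, over 14602 genes. Standard errors come from the F statistic and intervals are 95%. The 5 comparisons were the vectors in untreated and treated cells, the H2O2 response with each vector, and how these 2 responses differ. DESeq2 1.42.0 and limma 3.58.1 served as alternatives. For FPKM, limma used log2 values with pseudocounts of 1 and 0.1 and a minimum of 0.5 FPKM in 4 libraries. The scripts were tested on simulated data.

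The members, gene lists, motifs and the choice to set library 11 aside were made with earlier results of these data known. Values in every library are given for members called at 2-fold or more in both vector comparisons and for Dusp1, Dusp4, Dusp5, Dusp6, Spry1, Spry2, Spry4, Etv1, Etv4, Etv5 and Phlda1. From each pathway list up to 5 genes with the smallest adjusted p under H2O2 were named, and receptors with the largest change; some genes of the ERK cascade are not reported here by name. Exonic overlaps came from GENCODE for mm10, in which all 25745 symbols matched. Promoters came from RefSeq (GRCm38.p6), in which 25 members have an entry; Dusp4, Dusp9, Dusp19, Dusp26, Etv4, Phlda1 and Spry4 were not matched.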

Additional observations from a re-analysis of the deposited data

Results flagged for a closer look

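For each tested member, the highest and the lowest library of each group of 4 were set against the other 3, and a library was marked where its gap to the nearest one took a share of the group's whole range above the 95% critical value of Dixon's test. Of 124 member and group pairs, 28 were marked; chance alone marks about 1 in 20. Library 11 accounted for 20 of them, and the marks in other libraries lie near the chance rate. The share of all genes marked by this rule was not worked out, so the marks are not shown to be particular to the members. Library 11 also stood apart over all genes tested. In CPM it was at least 2-fold above the mean of the rest of its group for 18.1% of them and at least 2-fold below for 26.1%. It was the highest of the untreated empty-vector libraries in CPM for Dusp14 at 38.1, Dusp18 at 74, Dusp6 at 289, Dusp10 at 81.2, Dusp16 at 198, Dusp1 at 78.4, Dusp4 at 251, Etv1 at 125, Etv4 at 372, Phlda1 at 77.3, Spred2 at 205, Spry2 at 141 and Spry4 at 123. It was the lowest for Dusp11 at 206, Dusp22 at 8.06, Dusp3 at 54.5, Dusp9 at 26.7, Etv5 at 88.2, Spred1 at 91.7 and Spred3 at 17.8. For Dusp18 the position depended on the scaling: in FPKM, library 11 was the lowest of its group, at 12.04 against 14.9 to 15.1. In untreated lentivirus library 3 the marked values were those of Dusp18 (highest, 58.1 CPM) and Spred3 (highest, 21.3 CPM). In treated lentivirus library 5 the marked value was that of Spry2 (lowest, 63.1 CPM). In treated lentivirus library 6 the marked values were those of Dusp19 (lowest, 13.1 CPM), Spred1 (lowest, 187 CPM) and Spred2 (lowest, 50.8 CPM). In treated lentivirus library 7 the marked value was that of Dusp7 (highest, 12.9 CPM). In untreated empty-vector library 12 the marked value was that of Dusp26 (highest, 0.0186 CPM). The value of Dusp26 in library 12 is a single count. No member's response to H2O2 was called different between the vectors.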

How the results depend on the processing

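No paired analysis was possible because the libraries carry running numbers that no 2 groups share. The alternatives were RLE scaling, DESeq2, limma voom with library quality weights, no filter, a fit of the compared groups only, limma on log2(FPKM + 1) filtered and unfiltered and on log2(FPKM + 0.1), and each library left out in turn. The number of members called under H2O2 moved from 11 to 20 higher and from 6 to 10 lower with voom weights, with the compared groups only, and without library 11. Over all genes the main fit called 3189 higher and 2890 lower of 14445. In these 3 settings 10916 of 14445, 10491 of 13963 and 10779 of 14602 were called in either direction. The rise was thus not particular to the members. Leaving out 1 library gave 16 to 20 higher and 7 to 10 lower in untreated cells, 11 to 20 and 5 to 10 in treated cells, and 0 in each H2O2 comparison and in their difference. Over all genes, leaving out 1 library gave 6734 to 10858 calls in either direction in untreated cells and 5349 to 10779 in treated cells. Every other count of members kept within 1.5 times of the main one. Of the values of single members in the vector comparisons, 1370 kept their direction and call, 24 lost the call, 56 gained it and 26 changed sign; of the H2O2 values of 11 members, 729 kept direction and 42 changed sign. Of the 68 changes of sign, over 22 results, 6 were called in the alternative (Dusp8, Dusp16 and Spry2 in untreated cells, by voom and without library 11). Of the lost calls, Dusp12 under H2O2 fell out in 10 settings: no filter, the 3 FPKM fits, and without libraries 5, 6, 8, 13, 14 or 15; the others were Dusp5 (both comparisons) and Dusp3, Dusp18 and Dusp10 (untreated), in FPKM fits, without the filter or with the compared groups only. The cause was not tested. The starting value is in parentheses. In the untreated vector comparison, Dusp16 (0.67) became -0.67 by voom, -0.036 by FPKM + 1, -0.064 by FPKM + 0.1, -0.036 by FPKM + 1 unfiltered, -0.64 to 0.94 with 1 library left out. Dusp19 (-0.22) became 0.065 by voom, -0.35 to 0.041 with 1 library left out. Dusp22 (0.063) became -0.060 by FPKM + 1, -0.086 by FPKM + 0.1, -0.060 by FPKM + 1 unfiltered, -0.048 to 0.32 with 1 library left out. Dusp8 (0.079) became -0.56 by voom, -0.064 by FPKM + 1, -0.15 by FPKM + 0.1, -0.064 by FPKM + 1 unfiltered, -0.51 to 0.30 with 1 library left out. Spred1 (0.069) became -0.046 by FPKM + 1, -0.053 by FPKM + 0.1, -0.046 by FPKM + 1 unfiltered, -0.029 to 0.30 with 1 library left out. Spry2 (0.29) became -0.14 by voom, -0.14 to 0.42 with 1 library left out. In the H2O2 response of empty-vector cells, Dusp1 (-1.30) became 0.13 by voom, -1.58 to 0.10 with 1 library left out. Etv5 (0.10) became -0.0026 to 0.14 with 1 library left out. Spry1 (-0.17) became 0.51 by voom, -0.56 to 0.17 with 1 library left out. Spry2 (-0.43) became 0.011 by voom, -0.55 to 0.0043 with 1 library left out. Spry4 (-1.37) became -1.63 to 0.0042 with 1 library left out. In the H2O2 response of lentivirus cells, Dusp5 (0.0031) became -0.030 to 0.037 with 1 library left out. Dusp6 (-5.35e-04) became 0.0034 by RLE, 0.0034 by DESeq2, 3.36e-04 by no filter, 8.95e-04 by compared groups only, 0.060 by FPKM + 1, 0.064 by FPKM + 0.1, 0.060 by FPKM + 1 unfiltered, -0.037 to 0.052 with 1 library left out. Etv4 (-0.065) became -0.19 to 0.023 with 1 library left out. Etv5 (0.079) became -0.0037 to 0.15 with 1 library left out. Spry1 (0.063) became -0.0097 to 0.13 with 1 library left out. Spry2 (0.0064) became -0.012 to 0.023 with 1 library left out. Spry4 (0.13) became -0.019 to 0.22 with 1 library left out. In the difference of the responses, Etv4 (-0.64) became 0.0094 by voom, -0.82 to 0.057 with 1 library left out. Etv5 (0.018) became -7.50e-04 by DESeq2, -0.091 by voom, -0.084 to 0.10 with 1 library left out. Spry1 (-0.23) became 0.46 by voom, -0.62 to 0.10 with 1 library left out. Spry2 (-0.44) became 0.0068 by voom. DESeq2 gave no adjusted p for Dusp1, Dusp10, Dusp16 and Spry4 (for 21 members in the difference of responses), and these are left out there. The FPKM scales put the median of all genes in the empty-vector H2O2 comparison at 0.11 (+ 1) and 0.14 (+ 0.1). Depth limited only Dusp13, Dusp26 and Spry1 in empty-vector cells.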
